A study of Drosophila melanogaster with 6 samples.

Results

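The genes of oxidative phosphorylation were followed in whole Drosophila embryos that lacked maternal Raf, a kinase of the EGF and Torso receptor pathways, and in wild-type embryos. A gene was taken as a member by its FlyBase symbol: those that begin with ND-, UQCR-, COX or ATPsyn, the 4 genes SdhA to SdhD, and the protein-coding genes of the mitochondrial genome that begin with mt:ND, mt:Co, mt:Cyt-b or mt:ATPase. This gave 97 of the 17714 genes in the deposited tables, of which 84 are nuclear and 13 mitochondrial. RNA-seq comprised 3 samples of Raf926 embryos and 3 of WT embryos, described by the study as biological replicates. Raf926 embryos came from mothers whose germline was made homozygous for Raf926, a small frameshifting deletion in Raf, on a white-marked FRT19A X chromosome by FLP/FRT recombination against the dominant female sterile ovoD2. The WT strain of the study is Oregon R. The study describes the fathers of the Raf926 embryos as hemizygous males and lists an FM6 balancer male in a cross of such mothers, without tying that cross to these samples, and each sample pooled embryos of mixed stages. According to the labels, eggs of both genotypes were laid over 24 h at 25 °C, while the methods give a shorter collection at a lower temperature, and this conflict was not settled. Mitochondria pass through the mother, and mothers of the 2 genotypes were of different stocks, so the mitochondrial genome's own background and the Raf genotype cannot be told apart. Zygotic and maternal transcripts were measured together, and in such bulk samples fewer cells of a type and less RNA per cell cannot be told apart either.

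Oxidative phosphorylation takes place in the inner mitochondrial membrane. Complex I (NADH dehydrogenase) and complex II (succinate dehydrogenase) feed electrons to ubiquinone, complex III (ubiquinol-cytochrome c reductase) passes them to cytochrome c, and complex IV (cytochrome c oxidase) passes them to oxygen. The proton gradient that results drives complex V, the ATP synthase. All complexes but complex II mix proteins made from nuclear genes with a few made from the mitochondrial genome. An egg is supplied by its mother with a large store of mitochondria and with mRNA for the nuclear subunits, and the zygotic genome takes over these mRNAs later. Several nuclear subunit genes of the fly also have a second gene of similar sequence, and many of those copies are known from adult flies as testis genes.

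Of the 84 nuclear genes, 40 were assigned to complex I, 4 to complex II, 9 to complex III, 16 to complex IV and 15 to complex V. This rests on the start of the symbol alone, ND- for complex I and COX for complex IV, and was not checked otherwise. By their symbols 21 are copies (a parent's symbol followed by L and sometimes a digit), 17 are parents of such copies, and 46 have no such copy and are called single-copy here. The deposited values are RSEM expected counts, which are estimated reads per gene. Summed over all genes, a sample held from 33275401 to 38120428 expected counts. They are given here as normalized counts, which are expected counts scaled by edgeR's TMM factors to the mean library size. For each of the 11568 genes with a mean of at least 10 counts, Raf926 was set against WT in edgeR (quasi-likelihood test), and p-values were adjusted over all of them after Benjamini and Hochberg. A gene was called at an adjusted p under 0.1 together with a fold change over 1.5, the thresholds the study used. In what follows, "past the adjusted p" means an adjusted p under 0.1 at any fold. An exact two-sided permutation test of 3 against 3 samples cannot give a p below 0.1, so none is quoted for single values.

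Raf itself had 1202, 1399 and 1546 normalized counts in Raf926 samples, against 2539, 2935 and 2184 in WT samples, with no overlap. The samples also differed in composition and stage markers. Of 12 muscle genes 11 were called lower in Raf926. The 12 had a summed level of 831 to 1582 CPM in Raf926 samples, against 5630 to 9742 CPM in WT samples. CPM are counts per 1000000 counts, for these gene lists without rRNA, snoRNA and snRNA and scaled by TMM. Raf926 replicate 2 held the 1582. Tm1, the gene not called, weighed most in the Raf926 sums, with 23954, 27597 and 25031 normalized counts, against 26450, 24081 and 28253 in WT samples. Mhc, 1 of those called, had 264, 4142 and 57.8 normalized counts in Raf926 samples, against 35587, 28475 and 54146 in WT samples. Of 8 maternal transcripts 7 were called higher, with 2367 to 2993 CPM in Raf926 samples, against 966 to 1327 CPM in WT samples. The gene smg, called higher, weighed most in these sums, with 59222, 75841 and 72029 normalized counts in Raf926 samples, against 33387, 28818 and 25964 in WT samples. Of 10 neuronal genes 7 were called lower and 1 higher, of 7 hemocyte genes 5 lower and 2 higher, of 5 gut genes 5 lower, of 8 embryo patterning genes 6 lower, and the 1 tested of 6 fat body genes was called higher. The part of these differences in the results on oxidative phosphorylation was not tested.

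The nuclear subunits moved little and mostly in one direction. Of the 66 nuclear members tested, 4 were called, 2 higher and 2 lower in Raf926, which is 6.06%. Over all genes tested, 49.7% were called, 22.7% higher and 26.9% lower. Past the adjusted p at any fold, 34 of the 66 were lower (51.5%) and 6 were higher (9.09%). All genes gave 34.3% lower and 32.3% higher, 66.7% in all, and later counts past the adjusted p are to be read beside these shares. In 38 of the 66 every Raf926 sample lay below every WT sample and in 7 every one lay above, while all genes gave 35.2% below and 33.3% above, 68.5% in all. The median log2 fold change of the nuclear members was −0.22, or 85.7% of WT, against −0.043 over all genes tested. It depended on single samples: without Raf926 replicate 2 it was −0.13, against −0.012 over all genes, and without WT replicate 2 it was −0.27, against −0.056 over all genes. The counts past the adjusted p did depend on the settings: the 34 lower members were 49 with library size alone and 20 without Raf926 replicate 2, and the 6 higher ones were 3 with library size alone. Without the 4 tested copies, 60 of the 62 nuclear members lay within 1.5 fold of WT.

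**Figure D1:**
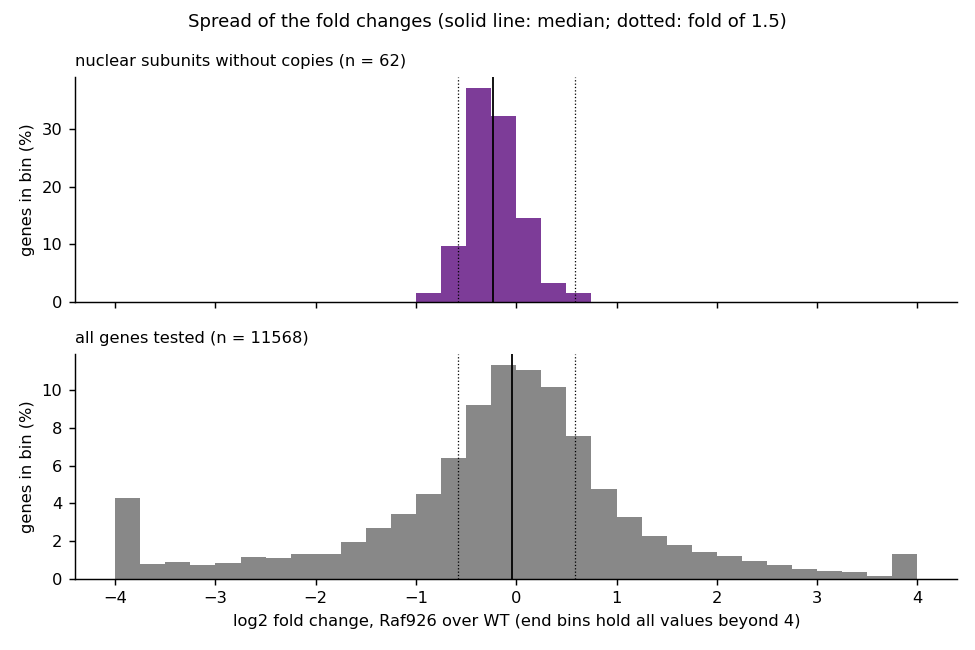
Percent of genes in bins of the log2 fold change, Raf926 over WT, for the 62 tested nuclear subunits without copies (upper panel) and for all 11568 genes tested (lower panel); solid lines mark the medians, dotted lines a fold of 1.5, and the end bins hold all values beyond the axis. The subunits sit in a narrow band between −0.81 and 0.51, with their median at −0.24.

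In TPM, the authors' transcript measure that divides by gene length, the 62 tested nuclear members without copies had a median level of 128 TPM in Raf926 embryos and 170 TPM in WT embryos (averaged over 3 samples each). The highest was ND-MLRQ, a small accessory subunit, at 1256 TPM in Raf926 and 1558 TPM in WT embryos. TPM are not scaled by TMM.

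Complex I is the largest of the complexes. Of its 33 tested nuclear members without copies none was called by edgeR, 18 were lower past the adjusted p and 1, ND-42, was higher. At an unadjusted p under 0.05, 17 of the 33 were lower and 0 higher, and DESeq2's Wald test called 0. Because so many genes of the whole table differed, an adjusted p under 0.1 was reached at an unadjusted p somewhat above 0.05. The share of all genes at an unadjusted p under 0.05 was not counted, where 66.7% were past the adjusted p. Counts at that cut, here and below, are therefore no result about the members. Their median log2 fold change was −0.27. The 7 nuclear core subunits carry the flavin and the iron-sulfur clusters along which electrons pass from NADH to ubiquinone, a role known in detail from the mammalian and bacterial enzymes. Their median was −0.37, and 5 of the 7 were lower past the adjusted p.

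The NADH-binding end of complex I was among the lower ones. ND-51 (FBgn0031771; chromosome 2L, 6060842 to 6062757, minus strand of BDGP6.54), the flavoprotein that takes electrons from NADH, had 2509, 2213 and 2336 normalized counts in Raf926 samples, against 3208, 3255 and 3436 in WT samples (log2 fold change −0.49, SE 0.093, edgeR adjusted p = 0.003). Its partner ND-24 had 1206, 1231 and 1171 normalized counts in Raf926 samples, against 1545, 1478 and 1644 in WT samples (log2 fold change −0.37, SE 0.103, edgeR adjusted p = 0.016). Raf926 samples lay below all WT samples for both genes. ND-75, the large subunit of the same module, was also lower, with 4295, 4504 and 3989 normalized counts in Raf926 samples, against 5198, 5814 and 5671 in WT samples (log2 fold change −0.38, SE 0.094, edgeR adjusted p = 0.0091). ND-23, an iron-sulfur subunit nearer to ubiquinone, had 1474, 1494 and 1273 normalized counts in Raf926 samples, against 1837, 1995 and 1962 in WT samples (log2 fold change −0.45, SE 0.108, edgeR adjusted p = 0.0085). The groups did not overlap for either gene. ND-20, which holds the last iron-sulfur cluster, had 2759.5, 2644 and 2820.1 normalized counts in Raf926 samples, against 3104, 3159 and 3067 in WT samples (log2 fold change −0.18, SE 0.084, edgeR adjusted p = 0.096). The 2 other core subunits did not pass the test: ND-49 had 5167, 5350.2 and 5395 normalized counts in Raf926 samples, against 5647, 5108 and 5387 in WT samples (log2 fold change −0.021, SE 0.085, edgeR adjusted p = 0.85), with overlapping groups, and ND-30 had a log2 fold change of −0.11 (edgeR adjusted p = 0.41).

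The accessory subunits, which surround the core without taking part in electron transfer, spread more widely. ND-B17.2 was the lowest of the single-copy members of complex I, with 1003, 798 and 998 normalized counts in Raf926 samples, against 1521, 1336 and 1306 in WT samples (log2 fold change −0.57, SE 0.139, edgeR adjusted p = 0.0089), just short of the fold threshold. ND-B14.5A, a parent of a copy, had 749, 667 and 789 normalized counts in Raf926 samples, against 948, 903 and 880.1 in WT samples (log2 fold change −0.31, SE 0.133, edgeR adjusted p = 0.077). In both genes every Raf926 sample was below every WT sample. ND-42 was the highest of the single-copy members, with 4602, 5296 and 5088 normalized counts in Raf926 samples, against 4416, 4312 and 4358 in WT samples (log2 fold change 0.20, SE 0.09, edgeR adjusted p = 0.095). Its groups did not overlap, but its log2 fold change was −0.003 with library size alone. The 23 other single-copy accessory subunits that were tested had log2 fold changes between −0.52 and 0.18.

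**Figure D2:**
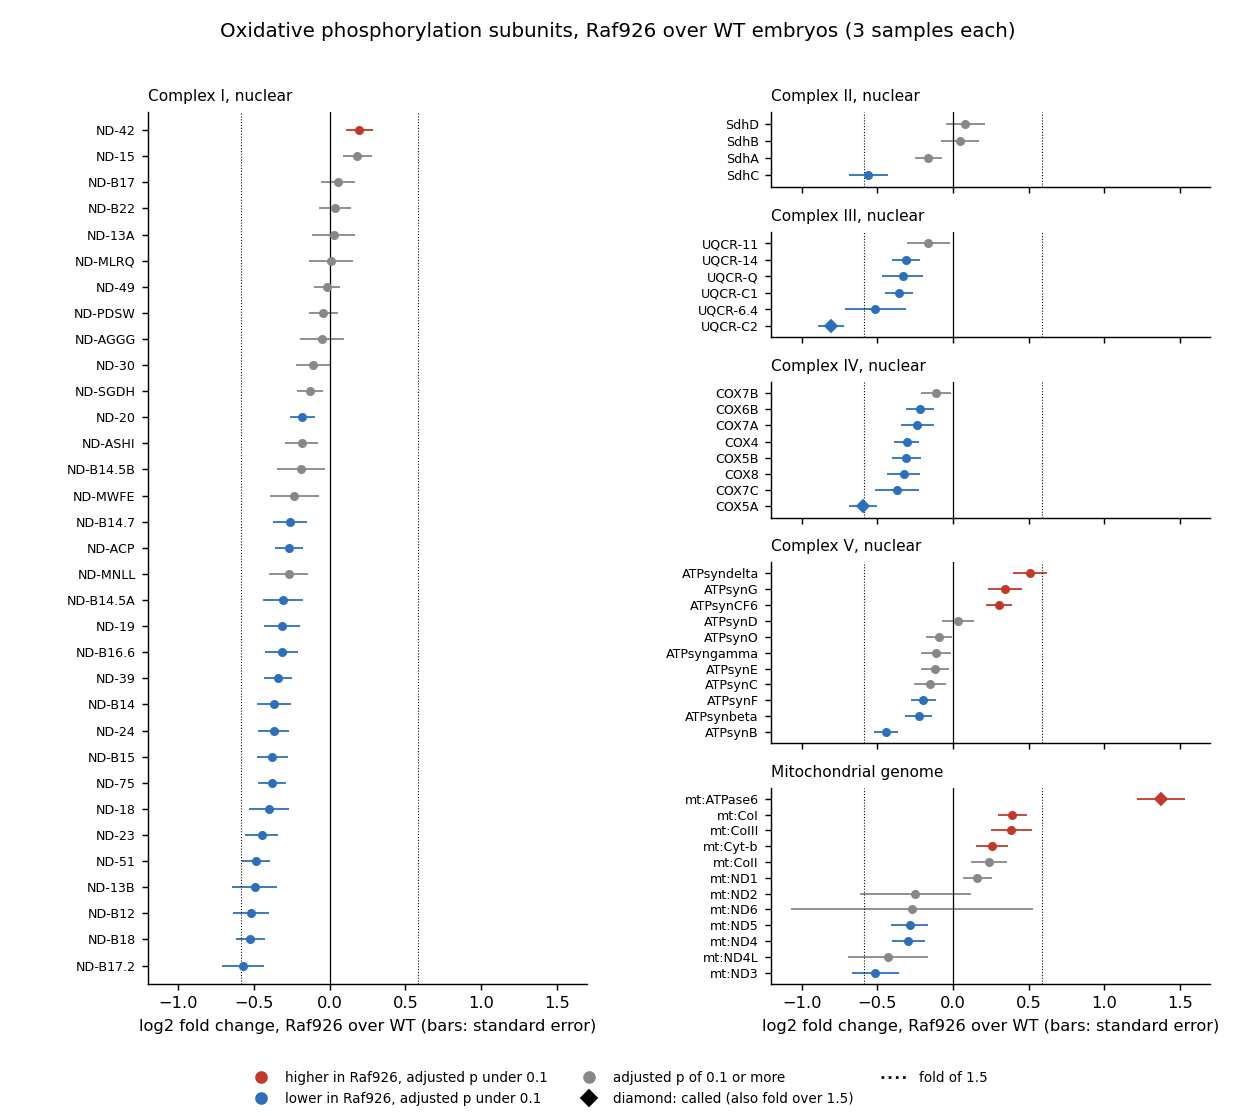
Log2 fold change, Raf926 over WT, of the tested subunits without copies, by complex, with standard errors (3 samples of each genotype); red and blue points are higher and lower past an adjusted p of 0.1 by edgeR, grey points are not, diamonds are called, and dotted lines mark a fold of 1.5. All nuclear members assigned by symbol to complexes III and IV lie left of 0, whereas mt:ATPase6 stands alone on the right at 1.37.

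Complex II is encoded by nuclear genes alone and also works in the citrate cycle. None of its 4 members was called by edgeR or by DESeq2, and only SdhC had an unadjusted p under 0.05. SdhC, a membrane anchor, had 1493, 1149.5 and 1176 normalized counts in Raf926 samples, against 1883, 1794 and 1947 in WT samples (log2 fold change −0.56, SE 0.13, edgeR adjusted p = 0.0074), so that all Raf926 samples lay below all WT samples. SdhD, the other anchor of the same pair, had 873, 947 and 1064 normalized counts in Raf926 samples, against 894, 909.6 and 921 in WT samples (log2 fold change 0.082, SE 0.129, edgeR adjusted p = 0.61). The groups of SdhD overlapped, and the difference between the anchors was itself not tested. SdhA, the flavoprotein that oxidizes succinate, had 3341, 3401 and 3366 normalized counts in Raf926 samples, against 3677, 3581 and 4059 in WT samples (log2 fold change −0.16, SE 0.09, edgeR adjusted p = 0.15). SdhB, the iron-sulfur subunit, had 3043, 3171 and 2809.6 normalized counts in Raf926 samples, against 2468, 2955 and 3327 in WT samples (log2 fold change 0.044, SE 0.126, edgeR adjusted p = 0.78), with overlapping groups. The estimates of SdhB and SdhD turned negative with library size alone and with upper-quartile scaling.

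Complex III held the lowest nuclear member of all. UQCR-C2 (FBgn0250814; chromosome 3L, 16584124 to 16586111, plus strand), a core protein on the matrix side of the complex, had 2707, 2856 and 2857 normalized counts in Raf926 samples, against 4707, 4853 and 5169.7 in WT samples. Raf926 embryos held 57.2% of the WT level, with means of 2807 ± 86.2 in Raf926 and 4909.9 ± 236 in WT embryos (SD, n = 3 each). It was called lower (log2 fold change −0.81, SE 0.087, edgeR adjusted p = 0.00026), and it was called under all 18 settings tried, the one reported here and 17 alternatives, with estimates between −1.01 and −0.76. Its partner in the complex, UQCR-C1, had 5483, 5993 and 5587 normalized counts in Raf926 samples, against 6711, 7436 and 7695 in WT samples (log2 fold change −0.36, SE 0.093, edgeR adjusted p = 0.012), a smaller difference without overlap. The difference between UQCR-C2 and UQCR-C1 was itself not tested.

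Of the 4 small subunits of complex III, 3 were lower past the adjusted p. UQCR-6.4 had 949, 738 and 868 normalized counts in Raf926 samples, against 1573, 989 and 1085 in WT samples (log2 fold change −0.51, SE 0.201, edgeR adjusted p = 0.057), but 40.5% of its exonic length is shared with POSH on the other strand. UQCR-14 had 2953, 3044 and 3168 normalized counts in Raf926 samples, against 4084, 3748 and 3542 in WT samples (log2 fold change −0.31, SE 0.094, edgeR adjusted p = 0.022), and its exons lie wholly within CG32576, also on the other strand. No source used here describes stranded counting, and without it reads in such stretches cannot be told apart. POSH was itself higher past the adjusted p (0.42) and CG32576 was not (−0.18). UQCR-Q had 2898, 2682 and 2464 normalized counts in Raf926 samples, against 2926, 3977 and 3229.5 in WT samples (log2 fold change −0.33, SE 0.134, edgeR adjusted p = 0.062). UQCR-11 had 3624, 2875 and 3708 normalized counts in Raf926 samples, against 4305, 3846 and 3282 in WT samples (log2 fold change −0.16, SE 0.141, edgeR adjusted p = 0.34), the only one of the 6 with overlapping groups.

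All 8 tested nuclear members assigned by symbol to complex IV, without copies, had lower estimates in Raf926, and 7 of them passed the adjusted p. Over all genes tested 34.3% were lower past the adjusted p, and 66.7% passed it in either direction. COX5A (FBgn0019624; chromosome 3R, 11819359 to 11820299, plus strand), a subunit of the matrix side, had 5035, 4565 and 4598 normalized counts in Raf926 samples, against 7196, 7575 and 6674 in WT samples. Its means were 4732 ± 263 in Raf926 and 7148 ± 453 in WT embryos (SD, n = 3 each), which is 66.2% of WT (log2 fold change −0.60, SE 0.093, edgeR adjusted p = 0.0012). The call sat at the fold threshold: COX5A was called in 14 of the 18 settings, and not with scaling by nuclear genes only, with glmTreat (a test against the fold of 1.5 itself), without Raf926 replicate 2 or without Raf926 replicate 3. Its estimate without a single sample stayed between −0.64 and −0.53.

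The 4 parents of copies in complex IV were lower past the adjusted p. COX4 had 6336, 6041 and 6348 normalized counts in Raf926 samples, against 7595, 8054 and 7485 in WT samples (log2 fold change −0.31, SE 0.082, edgeR adjusted p = 0.014). COX5B had 3388, 3413 and 3128 normalized counts in Raf926 samples, against 3789, 4462 and 4040.4 in WT samples (log2 fold change −0.31, SE 0.098, edgeR adjusted p = 0.028), and COX7C had 1709, 1434 and 1750.1 normalized counts in Raf926 samples, against 2449.5, 2086 and 1787 in WT samples (log2 fold change −0.37, SE 0.144, edgeR adjusted p = 0.056). In all of these the groups did not overlap. COX7A had 3572, 2818 and 3183 normalized counts in Raf926 samples, against 3653, 3684 and 3941 in WT samples (log2 fold change −0.24, SE 0.11, edgeR adjusted p = 0.097), also without overlap. COX7B had the highest estimate of the complex's nuclear members without copies, with 4179, 3936 and 4215 normalized counts in Raf926 samples, against 4801, 4542 and 3993 in WT samples (log2 fold change −0.11, SE 0.1, edgeR adjusted p = 0.35) and overlapping groups.

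Complex V was split. Of its 11 tested members without copies none was called by edgeR, 3 were lower and 3 higher past the adjusted p, and the same numbers, 3 lower and 3 higher, had an unadjusted p under 0.05, while DESeq2 called 0. ATPsynbeta, the catalytic subunit, had 24607, 22019 and 25567 normalized counts in Raf926 samples, against 29694, 27299.6 and 27559.5 in WT samples (log2 fold change −0.23, SE 0.091, edgeR adjusted p = 0.062). ATPsynB, the subunit b of the peripheral stalk that holds the stator in place, was the lowest, with 4527, 4591 and 4528 normalized counts in Raf926 samples, against 6106, 6429 and 6009.8 in WT samples (log2 fold change −0.44, SE 0.081, edgeR adjusted p = 0.0026). Neither gene's groups overlapped. ATPsynCF6, another protein of the peripheral stalk, was higher, with 4997, 5031 and 5155 normalized counts in Raf926 samples, against 4368, 3980.1 and 3979 in WT samples (log2 fold change 0.30, SE 0.086, edgeR adjusted p = 0.018). ATPsynG, subunit g of the membrane part, had 4600.0, 4324 and 5389 normalized counts in Raf926 samples, against 4006, 3556 and 3713 in WT samples (log2 fold change 0.34, SE 0.111, edgeR adjusted p = 0.029). With library size alone these estimates were 0.10 and 0.15, and neither passed the adjusted p (0.28 for each, edgeR).

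ATPsyndelta, a subunit of the central stalk, had the highest estimate of the single-copy members, with 5239, 5394 and 5427 normalized counts in Raf926 samples, against 4289, 3689.9 and 3317 in WT samples (log2 fold change 0.51, SE 0.111, edgeR adjusted p = 0.0057). Of its exonic length 35.6% is shared with CG2962 on the opposite strand. CG2962 was called higher in Raf926, with 44395, 50460.1 and 30093 expected counts in Raf926 samples, against 4016, 3447 and 7771 in WT samples (log2 fold change 3.31). The length that RSEM used for ATPsyndelta also varied, from 403 to 568 bases over the samples. In TPM, which divide by length and are not scaled by TMM, ATPsyndelta had 263 in Raf926 and 285 in WT embryos. The median of the 62 tested nuclear members without copies was itself lower in Raf926, at 128 TPM against 170 TPM in WT embryos. The parts of CG2962 reads and of length in the value of ATPsyndelta were not tested.

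The mitochondrial genome encodes 7 subunits of complex I, 1 of complex III, 3 of complex IV and 2 of complex V. The 12 tested genes lie between 240 and 12659 of the mitochondrial chromosome. They are read from both strands as long precursors that are cut, mostly at tRNAs, into mature mRNAs of 1 gene, except ATPase8 with ATPase6 and ND4L with ND4, which stay together. Of the 12, 1 was called (8.33%), mt:ATPase6, which was higher. At any fold 4 were higher and 3 were lower past the adjusted p, and the median was −0.045, close to that of all genes tested. All genes gave 32.3% higher and 34.3% lower, so 4 and 3 of 12 lie close to or below the shares of all genes. The 3 lower ones became 1 without Raf926 replicate 2 or without Raf926 replicate 3, and the 4 higher ones became 6 without Raf926 replicate 2 and 2 without Raf926 replicate 3 or with library size alone. The median depended on single samples, since it was 0.23 without WT replicate 1 and −0.085 without WT replicate 2.

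mt:ATPase6 (FBgn0013672; mitochondrial chromosome, 4062 to 4736, plus strand) encodes subunit a, the part of the proton channel next to the rotating ring. It had 122692, 133558 and 162643 normalized counts in Raf926 samples, against 64203, 52604 and 44883 in WT samples. The lowest Raf926 sample was 1.91 times the highest WT sample. Its means were 139631 ± 20656 in Raf926 and 53897 ± 9725 in WT embryos (SD, n = 3 each), 259% of WT (log2 fold change 1.37, SE 0.157, edgeR adjusted p = 0.00032). The call held in each of the 18 settings, with estimates between 1.18 and 1.5. The neighbouring gene on the same precursor, mt:ATPase8, is 162 bases long and was listed at 0 in every sample, where RSEM also gave it an effective length of 0, so it was not measured. The annotated ends of both genes overlap by 7 bases on a shared transcript. Whether reads of the mt:ATPase8 stretch were lost or were counted in mt:ATPase6 was not tested, so the counts, the fold change and the ratios of mt:ATPase6 may hold reads of both.

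The mitochondrial subunits of complex IV, which form its catalytic core, lay higher by smaller amounts, 2 of the 3 past the adjusted p. mt:CoI, which holds the heme and copper centre where oxygen is reduced, had 336146, 362902 and 379749.6 normalized counts in Raf926 samples, against 292948, 286562 and 242996 in WT samples (log2 fold change 0.39, SE 0.095, edgeR adjusted p = 0.009). mt:CoIII had 208159, 205186 and 241032 normalized counts in Raf926 samples, against 194650.2, 169157 and 137515 in WT samples (log2 fold change 0.38, SE 0.134, edgeR adjusted p = 0.039). Their groups did not overlap. mt:CoII, which receives electrons from cytochrome c, had 109272, 106911 and 119709 normalized counts in Raf926 samples, against 109168, 95620.1 and 79908 in WT samples (log2 fold change 0.24, SE 0.121, edgeR adjusted p = 0.12), with 1 WT sample inside the Raf926 range. mt:Cyt-b, the mitochondrial subunit of complex III, had 185361, 182026 and 200248 normalized counts in Raf926 samples, against 176834, 160688 and 137685 in WT samples (log2 fold change 0.26, SE 0.105, edgeR adjusted p = 0.066). With library size alone mt:CoI remained past the adjusted p at 0.20 (edgeR adjusted p = 0.067), while mt:CoIII (0.19, adjusted p = 0.21) and mt:Cyt-b (0.061, adjusted p = 0.58) did not.

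The subunits of complex I on the mitochondrial genome, which build its membrane arm, had a median of −0.29, with 3 of the 7 lower and 0 higher past the adjusted p. mt:ND3 had 10083, 8889 and 10367 normalized counts in Raf926 samples, against 17358, 12499 and 11999 in WT samples (log2 fold change −0.51, SE 0.153, edgeR adjusted p = 0.021). mt:ND4 had 37221, 37237 and 38024 normalized counts in Raf926 samples, against 51911, 46481 and 39584 in WT samples (log2 fold change −0.29, SE 0.109, edgeR adjusted p = 0.047). For both, all Raf926 samples lay below all WT samples. mt:ND5 had 55345, 50192 and 50192 normalized counts in Raf926 samples, against 71431, 66136 and 52401 in WT samples (log2 fold change −0.29, SE 0.123, edgeR adjusted p = 0.078), with 1 WT sample inside the range of the Raf926 samples. mt:ND1, the exception in direction, had 59449, 58702 and 65958 normalized counts in Raf926 samples, against 58935, 55669 and 50115 in WT samples (log2 fold change 0.16, SE 0.094, edgeR adjusted p = 0.18). mt:ND4L, which shares its transcript with mt:ND4, had 242, 215 and 184 normalized counts in Raf926 samples, against 393, 236 and 235 in WT samples (log2 fold change −0.43, SE 0.267, edgeR adjusted p = 0.2).

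mt:ND2 and mt:ND6 varied widely between samples of 1 genotype. mt:ND2 had 1928, 751 and 718 normalized counts in Raf926 samples, against 1540.1, 1273 and 1223 in WT samples (log2 fold change −0.25, SE 0.367, edgeR adjusted p = 0.58), with 1 Raf926 sample above all WT samples. mt:ND6 had 179, 143 and 68.3 normalized counts in Raf926 samples, against 266, 16.6 and 188 in WT samples (log2 fold change −0.27, SE 0.801, edgeR adjusted p = 0.79), and a single WT sample held far fewer than the rest. Both estimates changed sign when 1 sample was left out.

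**Figure D3:**
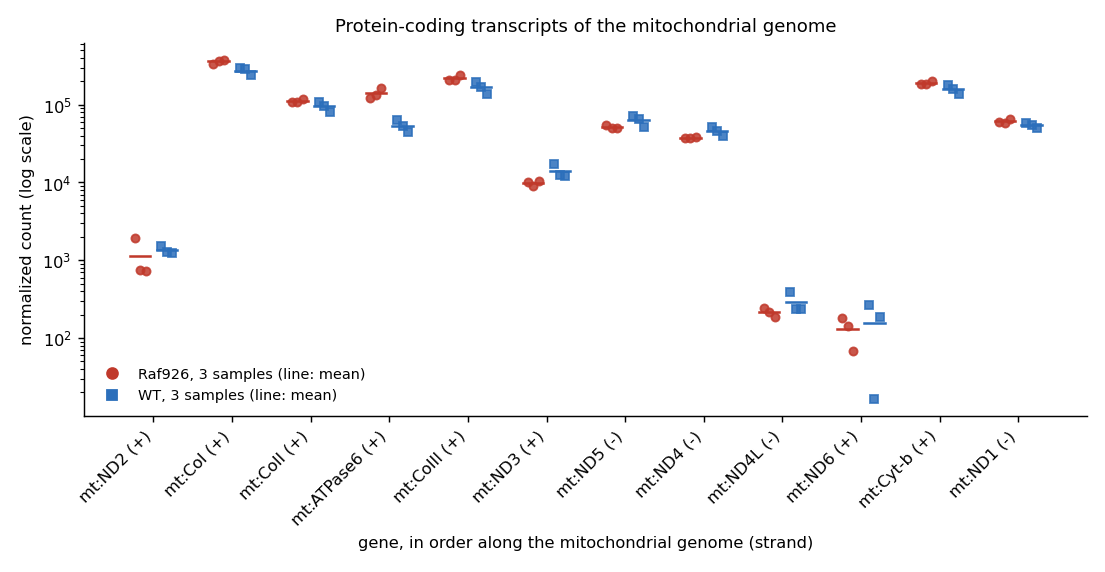
Normalized counts (log scale) of the 12 tested protein-coding genes of the mitochondrial genome, in order along it, in each Raf926 sample (red circles) and WT sample (blue squares); lines are means of 3. The samples of mt:ATPase6 stand apart (122692, 133558 and 162643 against 64203, 52604 and 44883), and mt:ND2, mt:ND4L and mt:ND6 lie far below the other genes.

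mt:CoIII had the highest level in both genotypes, 10797 TPM in Raf926 and 9998 TPM in WT embryos, and mt:ND6 the lowest of the measured genes, 12.9 TPM in Raf926 and 18.7 TPM in WT embryos. mt:ATPase6 changed place, with 8799.9 TPM in Raf926 and 4112 TPM in WT embryos: it was above mt:CoI in Raf926 embryos and below it in WT embryos. The 8 tested genes of the plus strand had a median log2 fold change of 0.25 and the 4 of the minus strand one of −0.29. Single genes of either strand went against this order, such as mt:ND3 on the plus strand and mt:ND1 on the minus strand.

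Ratios within a library do not depend on how libraries are scaled. mt:ATPase6 and mt:CoIII are neighbours on the plus strand whose annotated ends overlap by 1 base. The count of mt:ATPase6 per count of mt:CoIII was 0.589, 0.651 and 0.675 in Raf926 samples, against 0.33, 0.311 and 0.326 in WT samples. The lowest Raf926 ratio lay above every WT ratio. The ratio of mt:CoII to mt:CoIII, for comparison, was 0.525, 0.521 and 0.497 in Raf926 samples, against 0.561, 0.565 and 0.581 in WT samples. This ratio was lower in every Raf926 sample. mt:ATPase6 took 10.9, 11.6 and 12.8% of the counts of the mitochondrial members in Raf926 samples, against 6.18, 5.56 and 5.62% in WT samples. The mitochondrial large rRNA, read from the other strand, had 80096 to 94445 CPM in Raf926 samples, against 61003 to 72817 CPM in WT samples.

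The mitochondrial genome supplied most of the subunit mRNA in every library, and a larger share in Raf926 embryos. Its members made up 84.5, 85.1 and 85.7% of all member counts in Raf926 samples, against 81.4, 80.3 and 77.4% in WT samples, with means of 85.1 ± 0.61% and 79.7 ± 2.07% (SD, n = 3 each) for Raf926 and WT. The groups did not overlap. Nuclear members made up 0.58, 0.564 and 0.596% of counts other than rRNA, snoRNA and snRNA in Raf926 samples, against 0.764, 0.724 and 0.784% in WT samples, without overlap. The mitochondrial members made up 3.16, 3.21 and 3.58% in Raf926 samples, against 3.33, 2.95 and 2.68% in WT samples, and these overlapped.

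**Figure D4:**
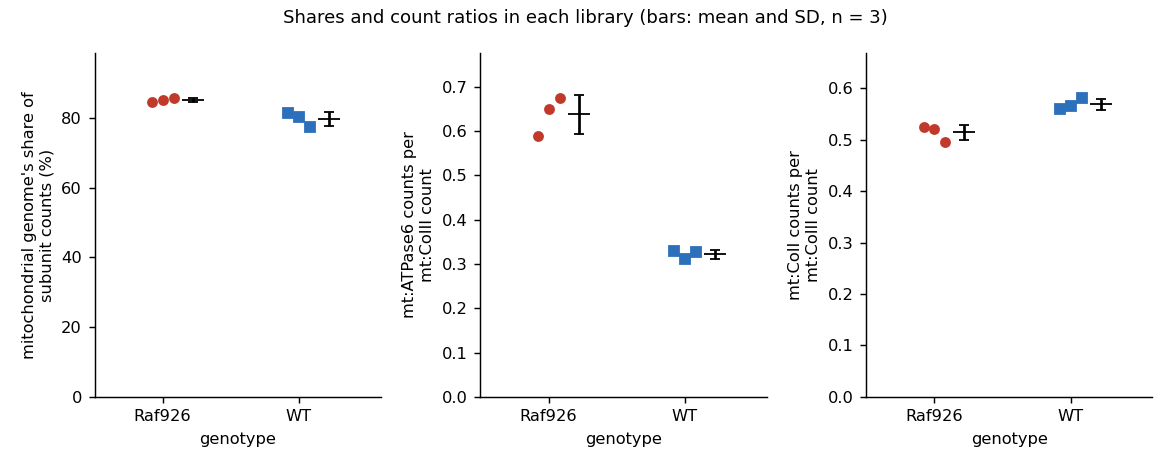
Share of all subunit counts that came from the mitochondrial genome (left), counts of mt:ATPase6 per count of mt:CoIII (middle) and counts of mt:CoII per count of mt:CoIII (right) in each Raf926 library (red circles) and WT library (blue squares), with mean and SD in black. None of the 3 measures overlaps between genotypes, and the ratio of mt:ATPase6 lies at 0.589, 0.651 and 0.675 in Raf926 against 0.33, 0.311 and 0.326 in WT.

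Duplicated and single-copy subunits were compared next. The parents and the single-copy genes had medians that lay close together. Of the 17 parents none was called by edgeR, 11 were lower and 2 higher past the adjusted p, and the median log2 fold change was −0.24. Of the 45 tested single-copy members 2 were called, both lower, 23 were lower and 2 higher past the adjusted p, and the median was −0.23. At an unadjusted p under 0.05, 9 of the 17 parents were lower and 2 higher, and DESeq2 called 0 of them. Of the 21 copies only 4 passed the filter on low counts, and 2 of these were called, both higher, a share close to the 49.7% called over all genes. One of the 2, ND-51L2, passed the filter only through its Raf926 counts.

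By position, 15 of the 21 copies lie on another chromosome arm than their parent and 6 on the same arm. Of the 6, 3 lie within 5000 bases of the parent: COX5BL at a gap of 122 bases, COX7CL at 281 and COX7AL at 2625. The 5 copies whose parents are X-linked (ATPsynepsilonL, ND-20L, ND-24L, ND-B14.5AL and UQCR-14L) all lie on autosomes, and no copy lies on the X. Of the 21, 8 have a single exon, and 14 have fewer exons than their parent. Where copy and parent are alike in sequence, RSEM could have divided reads between them, which was not tested. The 4 tested copies and their parents ND-51, ATPsynbeta, COX4 and sun had whole expected counts in every sample. Of the 62 tested members that are no copies, the 12 on the X had a median of −0.31, with 9 lower and 1 higher past the adjusted p. The 50 on autosomes had a median of −0.21, with 25 lower and 3 higher. All genes tested gave 34.3% lower and 32.3% higher, and were not split by chromosome. A shift of the whole X and one of these members therefore cannot be told apart here. The 22 with more than 5% of their exonic length shared with another gene had a median of −0.23.

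ND-51L2 (FBgn0034007; chromosome 2R, 15296764 to 15298329, minus strand), a copy of the NADH-binding ND-51 with a single exon, showed the widest contrast. It had 34, 31 and 13 expected counts in Raf926 samples, against 1, 0 and 0 in WT samples, which is 78 in all against 1. The ratio after scaling was 92.0 with an exact 95% interval of 16.0 to 3680 that covers counting error only. It passed the filter only through the Raf926 samples, so that it had to differ, and its call (higher, log2 fold change 6.05, SE 0.894, edgeR adjusted p = 0.00095) is a description. The fitted value rests on a single WT count and lay between 5.55 and 7.82 in the 4 fits without 1 sample in which the gene still passed. Without Raf926 replicate 1 or Raf926 replicate 2 it did not pass. Against its parent it stayed minor, at 1.58, 1.47 and 0.585% of the ND-51 count in Raf926 samples, against 0.0302, 0 and 0% in WT samples. The gene lies within an intron of Trpm, a cation channel gene on the same strand, which was called higher with 2649, 2880.0 and 2656 expected counts in Raf926 samples, against 1535, 1631 and 1934 in WT samples (log2 fold change 0.92). The part of Trpm precursor reads in the counts of ND-51L2 was not tested.

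ATPsynbetaL (FBgn0036568; chromosome 3L, 16097834 to 16100088, plus strand), a copy of the catalytic ATPsynbeta, was the other copy called. It had 45.4, 58.7 and 39.9 normalized counts in Raf926 samples, against 11.6, 22.4 and 11.7 in WT samples (log2 fold change 1.65, SE 0.4, edgeR adjusted p = 0.0087), without overlap. It was called in all 18 settings, with estimates between 1.46 and 1.98, while the parent was lower. Its counts were 0.184, 0.267 and 0.156% of the ATPsynbeta count in Raf926 samples, against 0.0391, 0.082 and 0.0423% in WT samples. The 2 other tested copies overlapped between genotypes. ATPsynepsilonL, a copy of the epsilon subunit gene sun, had 86.1, 86 and 47.3 normalized counts in Raf926 samples, against 57.1, 46.7 and 38.3 in WT samples (log2 fold change 0.63, SE 0.348, edgeR adjusted p = 0.16). COX4L had 30.2, 28.3 and 22.1 normalized counts in Raf926 samples, against 34.8, 27.3 and 22.5 in WT samples (log2 fold change −0.068, SE 0.345, edgeR adjusted p = 0.88).

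**Figure D5:**
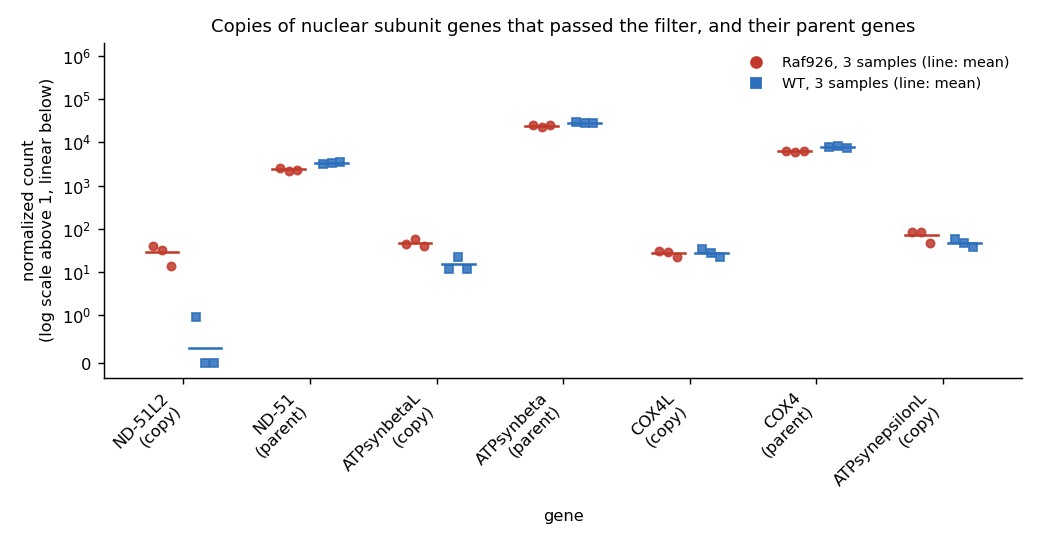
Normalized counts (log scale above 1, linear below) of the 4 copies that passed the filter and of the parents among the members, in each Raf926 sample (red circles) and WT sample (blue squares); lines are means of 3. The copies lie well below their parents; ND-51L2 and ATPsynbetaL are higher in every Raf926 sample, while ND-51 and ATPsynbeta are lower.

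The remaining 17 copies were at or near the limit of detection. None reached more than 11 counts in any sample (COX7AL), 9 had at most 3 counts in every sample, and COX6CL had 0 in all. The floor used here, 3 counts, corresponds to 0.0787 to 0.0902 CPM of all expected counts, without TMM. Summed over the 17, they had 17, 24 and 40.2 counts in Raf926 samples, against 25.1, 16 and 18 in WT samples, which overlap. ATPsynGL had 6, 1 and 5 counts in Raf926 samples, against 0 in each WT sample, and ND-24L had 0, 4 and 5, against 0 in each WT sample. Both were called higher only when the filter was dropped. Other copies leaned the other way. COX7CL had 0, 1 and 0 counts in Raf926 samples, against 6, 0 and 4 in WT samples, and COX5BL had counts in WT replicate 1 alone (6.08). ND-B8, single-copy by its symbol, was also below the filter, with 5, 0 and 2 counts in Raf926 samples, against 0 in WT samples. Of 15 annotated testis genes 5 had at most 3 counts in every sample, among them dj, Mst84Da and Mst84Db, and the list's summed level was 19.0 to 22.6 CPM in Raf926 samples, against 15.8 to 23.4 CPM in WT samples. The gene mia, which was not called, weighed most in these sums, with 557, 571 and 532 expected counts in Raf926 samples, against 481, 744 and 564 in WT samples. The sums therefore say little of the other testis genes. Of the 5 testis genes that were tested, can and topi were called higher.

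Other genes of the pathway gave a background for these values. Of the subunits and carriers that the symbols do not cover, such as blw (the alpha subunit of ATP synthase), Cyt-c-p (cytochrome c) and sesB (the ADP/ATP carrier), 15 were tested, 1 was called lower and 7 in all were lower past the adjusted p, with a median log2 fold change of −0.15. The one called was Mpcp1, a phosphate carrier, at −2.61, with 3.49, 72.4 and 4.2 normalized counts in Raf926 samples, against 164, 128 and 202 in WT samples. Raf926 replicate 2, the sample with more muscle transcripts, was again the highest Raf926 sample here.

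Among 14 tested enzymes of the citrate cycle and pyruvate dehydrogenase, 2 were called higher and 2 lower, and the median was −0.022. Mdh2 (malate dehydrogenase, 1.14) and ScsbetaA (a succinyl-CoA synthetase subunit, 0.60) were higher, while ScsbetaG, the alternative beta subunit of the same enzyme (−0.61), and Pdhb (−0.82) were lower. Of 14 tested genes that transcribe, copy or maintain the mitochondrial genome and its RNA, 2 were called higher and 5 lower, with a median of −0.27. Those lower were PolG2, the accessory subunit of the mitochondrial DNA polymerase (−1.37), mtDNA-helicase (−1.45), bsf, an RNA-binding protein that stabilizes mitochondrial mRNAs (−1.21), and SLIRP1 (−0.99) and SLIRP2 (−0.99), of the family that acts with bsf. Those higher were PolG1, the catalytic subunit of the polymerase (0.81), and mtTFB1, an rRNA methyltransferase (1.03).

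Of 3 nuclear regulators tested, ewg, the fly counterpart of NRF1, and Myc were called lower, with log2 fold changes of −1.32 and −1.08. The third, srl, the fly counterpart of PGC-1, was not called (−0.32, edgeR adjusted p = 0.13). Of 7 assembly factors and partners, ttm50 (−1.10) and the copper chaperone Cox17 (−0.96) were called lower, and the median was −0.39. The called shares of all these lists are to be read beside the 49.7% of all genes tested.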

How the data were processed

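RNA was measured in 3 samples of Raf926 embryos and 3 of WT embryos. The authors aligned the reads with STAR 2.7.1a to BDGP6.22 (Ensembl 97) and deposited, per gene, the expected counts and the TPM that RSEM 1.3.1 estimated, without normalization between samples. The deposited TPM were used only for levels of the members and 1 alternative. Of the 17714 gene identifiers 17587 matched the later BDGP6.54 annotation (Ensembl 115), the source of symbols, biotypes and coordinates. Expected counts, 11.5% of them not whole, were rounded. As in the study's methods, 390 rRNA, snoRNA and snRNA genes and genes with a mean under 10 counts were removed, which left 11568. TMM scaling of the counts gave factors of 0.931 to 0.937 in Raf926 and 1.03 to 1.11 in WT samples. Raf926 was then set against WT with edgeR (edgeR 4.0.16, R 4.3.3, quasi-likelihood). The p-values were adjusted over every gene in the fit (Benjamini-Hochberg). This procedure was also run on simulated data, but the outcome is not given here. No conclusion is drawn from that run for these data, where 66.7% of the genes tested passed the adjusted p. Standard errors were taken as the size of the log2 fold change over the root of its F statistic. The study's DESeq2 Wald test (DESeq2 1.42.0) was an alternative, beside other scalings, filters and thresholds, the replicate number as a block and each sample left out. No 2 samples held the same values. Reads carry no molecular identifiers, so intervals and the floor of 3 counts cover counting error only.

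Genes named are all mitochondrial members, all parents, the copies (by sample where they passed the filter, the rest by range and count), the highest and lowest single-copy member of each complex and every member called. ND-75, ND-23, ND-30, UQCR-C1, ND-MLRQ and ND-B8 were added after their values were seen. Of the untested copies, ATPsynGL, ND-24L, COX7CL and COX5BL were picked for their values. COX6AL, COX6AL2, COX6CL and ATPsynepsilonL count as copies of genes with other symbols (levy, cype and sun), and SdhA and SdhB as parents of SdhAL and SdhBL. The members and all gene lists were chosen with earlier results of these data known. The listed symbols nos, rye, ND-acp, mtacp1 and ANT2 matched no annotated gene. No p-value was computed over a list. Coordinates are those of BDGP6.54. Figures were drawn with matplotlib 3.10.9.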

Additional observations from a re-analysis of the deposited data

How the results depend on the processing

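The calls of UQCR-C2, mt:ATPase6 and ATPsynbetaL held under all 18 settings. With library size alone, 12 nuclear members were called lower, and 11 with upper-quartile scaling, against 2 with TMM; for mitochondrial members these settings gave 2 and 2, against 0, for duplicated members 2 and 2, against 0, and for single-copy members 10 and 9, against 2. The nuclear median was then −0.42 and −0.38. These scalings moved the median of all genes by −0.20 and −0.16, and the share of calls that were higher was 33.9% and 36.1%, against 45.8% with TMM. With scaling by nuclear genes only, and with glmTreat, 1 nuclear member was called lower, a single-copy one. Without a filter, 4 nuclear members were called higher, 4 of them duplicated, and 4 lower, all single-copy. Without the fold threshold, 6 nuclear members were higher and 34 lower, 4 mitochondrial higher and 3 lower, 4 duplicated higher and 11 lower, and 2 single-copy higher and 23 lower.

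With each sample left out in turn, nuclear members called ranged from 1 to 3 higher and from 1 to 5 lower, mitochondrial ones called lower from 0 to 1, duplicated ones from 1 to 3 higher and from 0 to 1 lower, and single-copy ones from 0 to 1 higher and from 1 to 4 lower. The count of 1 higher came without Raf926 replicate 1 or Raf926 replicate 2, that of 5 lower without Raf926 replicate 1 or WT replicate 2, that of 1 lower without Raf926 replicate 2, the mitochondrial call lower without Raf926 replicate 1, WT replicate 2 or WT replicate 3, and the single-copy call higher without WT replicate 1. The medians ranged from −0.27 to −0.13 (nuclear) and from −0.085 to 0.23 (mitochondrial). The mitochondrial share of subunit mRNA was 78.1% in Raf926 and 70.8% in WT embryos from TPM, and 82.9% in Raf926 and 77.8% in WT embryos without the 4 genes on shared transcripts. Changes of sign were followed only for the tested members named here, without ND-MLRQ. Other members with estimates near 0, such as ND-MLRQ (0.008), may have changed sign too. Among those followed, the estimates that changed sign were all of uncalled genes. With library size alone these were ND-42 (−0.003), SdhB (−0.16), SdhD (−0.12) and mt:ND1 (−0.036). With upper-quartile scaling they were SdhB (−0.12) and SdhD (−0.077), and with scaling by nuclear genes only ND-49 (0.0067). With single samples left out they were COX4L (−0.20 to 0.089), ND-49 (−0.10 to 0.0096), SdhB (−0.092 to 0.16), mt:ND2 (−0.87 to 0.012) and mt:ND6 (−0.85 to 0.27). The cause of these changes was not tested.

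Samples with the same replicate number did not deviate together (correlations of −0.039, −0.20 and −0.18 across genes), and no sample correlated best with its own number, so the numbers were not taken as pairs. A fit with that number as a block called 2536 genes higher and 2957 lower, nuclear members 2 higher and 2 lower and mitochondrial ones 1 higher and 0 lower, and mt:ND6 changed sign (0.14). A definition of copies by protein similarity was not run. The low counts of the copies limit what can be said of them.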
